A study of Canis lupus familiaris with 10 samples.

Results

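The genes examined here encode the machinery of axonal transport: kinesin and dynein motor subunits, the dynein partner dynactin, tubulins, and proteins that bind microtubules or regulate their assembly. They were selected by gene symbol. Included was every probe set annotated with a single symbol that either is 1 of 17 listed genes (the microtubule-associated proteins MAPT, MAP1A, MAP1B, MAP2, MAP4, MAP6 and MAP7, the stathmins, the doublecortin and CRMP families and the TPPP proteins) or begins with KIF, KLC, DYNC, DYNLL, DYNLRB, DCTN, TUBA, TUBB or TUBG. This selection comprised 213 probe sets of 90 genes, out of 29254 probe sets of 15115 genes that carry a single symbol on the array. Of these, 118 probe sets of 59 genes exceeded a log2 level of 7 in at least 2 retinas, the study's definition of an expressed gene, and were tested; 95 probe sets did not reach that level and 31 genes were not tested at all.

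RNA of the neural retina was profiled on 1 Affymetrix Canine Genome 2.0 array per dog. The glaucoma group comprised 5 patients of a veterinary clinic with primary, closed-angle glaucoma: 2 Shiba Inus (labelled 5 and 14 years old), 2 Basset Hounds (5 and 7 years) and 1 Dalmatian (9 years). All of them had received the pressure-lowering eye drops latanoprost and brinzolamide, and none had surgical treatment before the eye was removed. The healthy group comprised 5 Beagles, all 4 years old, with open angles and no eye disease. No breed occurred in both groups, every glaucoma dog was older than every healthy dog, and only the glaucoma dogs had been medicated. Glaucomatous eyes were enucleated to relieve pain, whereas the healthy dogs had been euthanized for reasons outside the study. Disease, breed, age, medication and the way the eyes were obtained therefore cannot be told apart. For the older Shiba Inu and the Dalmatian the study's own list of animals gives a lower age than the sample labels.

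Axons hold few ribosomes, and most of what they and their terminals need is made in the cell body and carried along microtubules. Kinesins move most cargo outward and cytoplasmic dynein, working with dynactin, moves it back, while tubulin dimers form the track and associated proteins stabilize, space or disassemble it. In the retina the ganglion cell, whose axon forms the optic nerve, depends most on this long-range transport, and its failure at the optic nerve head is a long-studied feature of glaucoma.

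Facts of the whole data set that bear on all values were as follows. The photoreceptor arrestin SAG, a defining retinal transcript, had a mean log2 level of 13.2 in glaucoma and 14.1 in healthy retinas. The array of the 5-year-old Shiba Inu correlated with the other glaucoma arrays at r = 0.849 to 0.917 over the tested probe sets, whereas the healthy arrays correlated with each other at r = 0.953 to 0.982. In the retina of that Shiba Inu the median deviation of 6 tested rod markers from the healthy mean was -3.74 log2 units. It was -0.94 to -0.04 in the other glaucomatous retinas. The median of 10 pigment epithelium markers was raised by 3.37 in that Shiba Inu and by 3.22 in healthy retina 4. Here and below, the deviation of a healthy retina was taken from the mean of the other healthy retinas.

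Among the genes of the transport machinery that passed the test, nearly all were lower in glaucoma, but most genes did not pass. With the threshold set at an adjusted p of 0.05 (limma, Benjamini-Hochberg over all 18416 tested probe sets), 32 of the 118 probe sets were lower in glaucomatous than in healthy retinas, or 27.1%, and 2 were higher, or 1.69%. Over all tested probe sets 9.4% were lower and 7.58% were higher. At least 2-fold lower were 16 of the 118 (3.12% of all tested probe sets were), and at least 2-fold higher was 1 (2.95%). All glaucomatous values lay below all healthy values for 30 probe sets (8.03% of all) and above them for 2 (6.82%). With no requirement on level, 31 of the 213 probe sets were lower (14.6%, against 4.62% of all probe sets) and 3 were higher (against 3.69%). With each gene represented by its brightest probe set, 18 of 59 genes were lower (30.5%, against 8.65% of 7900 genes) and 1 was higher (1.69%, against 8.04%), while 40 did not pass. The median difference of the 59 genes, glaucoma minus healthy, was -0.24 log2 units, against -0.01 over all tested genes, and 47 of the 59 differences were negative. At least 2-fold lower were 8 genes (2.71% of all genes were), and at least 2-fold higher was 1 (3.27%). All 5 glaucomatous retinas lay below all 5 healthy ones for 18 genes (7.84% of all genes did) and above them for 1 (7.29%). In bulk retina, fewer cells of a type and less RNA per cell cannot be told apart.

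**Figure D1:**
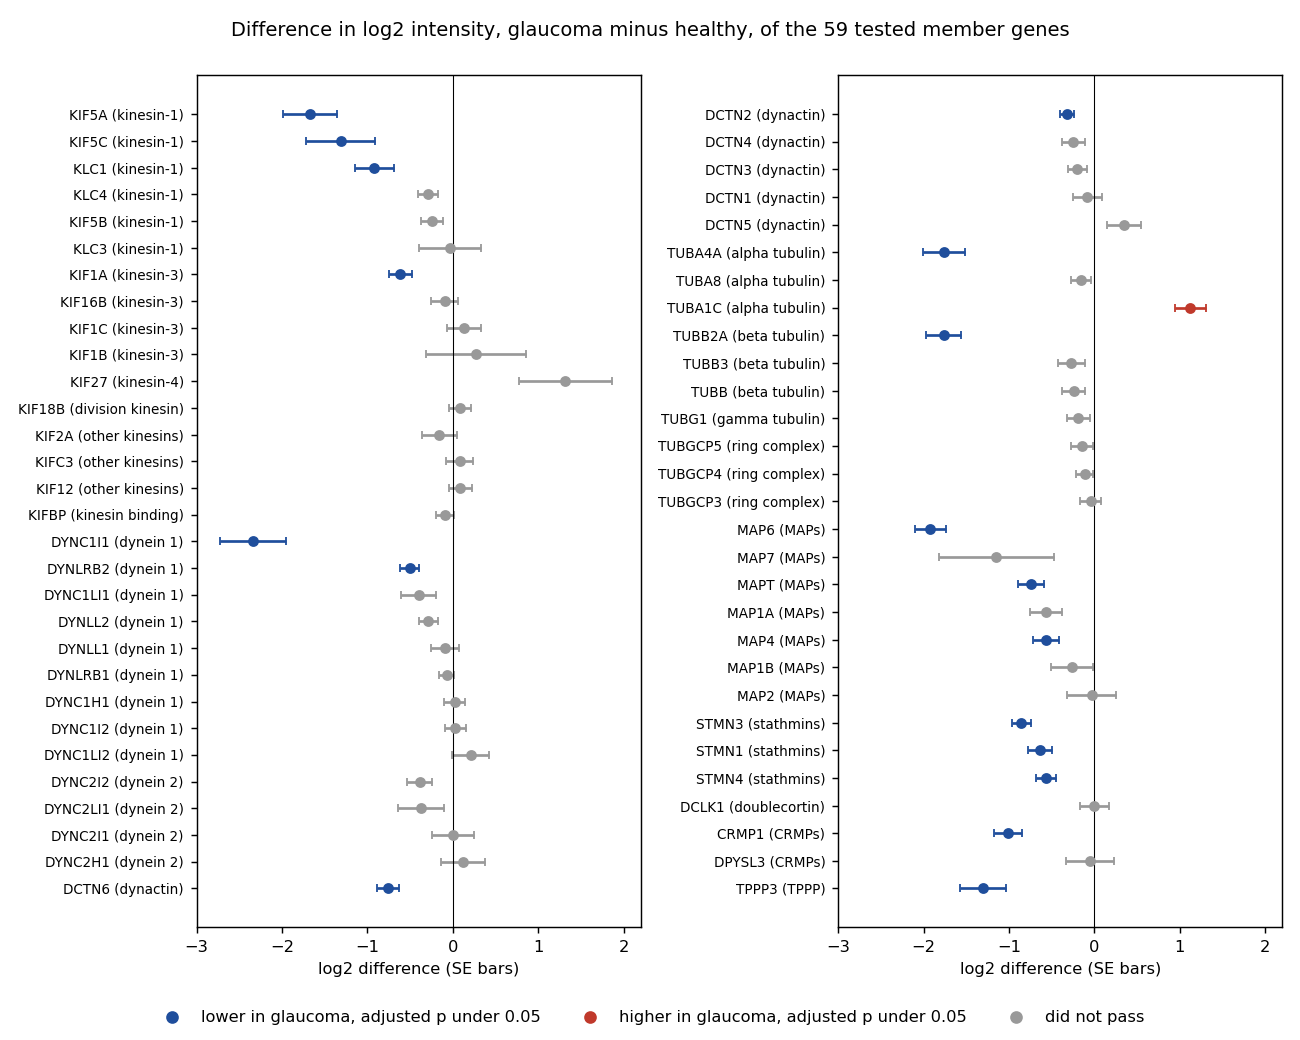
Difference in log2 intensity between the means of 5 glaucomatous and 5 healthy retinas for each tested gene, grouped by role, with bars of 1 SE from limma. The genes that passed lie between -2.34 (DYNC1I1) and -0.32 (DCTN2) on the lower side, and TUBA1C alone at 1.12 on the higher side; most dynein, dynactin and ring complex genes sit near 0.

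Many markers of inner retinal neurons were lower too, while over all tested genes 8.65% were lower and 8.04% higher. Of 9 tested ganglion cell markers 7 were lower and 1, SNCG, was higher (2.52, adjusted p = 0.000195), with a median difference of -2.54. SNCG was read here from its brightest probe set, and the study lists it as lower in glaucoma on another. The median of the 9 markers in each glaucomatous retina deviated from the healthy mean by -3.73 to -1.35 log2 units. In the healthy retinas it deviated by -0.47 to 0.54. Lower were also 4 of 5 amacrine, 3 of 3 horizontal and 3 of 4 bipolar cell markers, with medians of -2.14, -0.68 and -2.66. Of 6 rod markers 0 passed, with a median of -1.0, and 3 of 7 cone markers were lower. Higher were 2 of 6 Muller glia, 2 of 3 astrocyte and 8 of 8 microglia and macrophage markers, the last with a median of 2.13. The part of these shifts in the transport genes was not tested. Among the ganglion cell markers without a tested probe set were the defining transcription factors POU4F1, POU4F2 and POU4F3.

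Kinesin-1, the main fast outward motor, is a tetramer of 2 heavy chains, encoded by KIF5A, KIF5B or KIF5C, and 2 light chains that bind cargo. Of its 6 tested genes 3 were lower (50%, against 8.65% of all tested genes), 0 were higher and 3 did not pass. The median difference of the 6 was -0.60. Values of the glaucomatous retinas are given in the order 5-year-old Shiba Inu, 14-year-old Shiba Inu, 5-year-old Basset Hound, 7-year-old Basset Hound and Dalmatian, and those of the healthy retinas by their replicate number from 1 to 5.

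KIF5A, the heavy chain made mainly by neurons, had log2 levels of 8.15, 9.98, 9.88, 9.34 and 8.82 in glaucoma, against 11.32, 10.85, 10.90, 10.75 and 10.70 in healthy retinas. The groups did not overlap, and the 5-year-old Shiba Inu had the lowest level. The difference was -1.67 ± 0.32 (SE), a 3.18-fold lower mean level in glaucoma, with an adjusted p of 0.00499. The other 2 tested probe sets of KIF5A were lower too, by differences of -1.81 (adjusted p = 0.0045) and -1.29 (adjusted p = 0.0107), again without overlap. The last of these exceeded the level for testing only in healthy retinas, so it was tested only because it was high there and adds no support.

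KIF5B, the heavy chain made in nearly all cells, gave a different picture. Its levels were 10.64, 10.81, 10.70, 10.75 and 10.46 in glaucoma and 11.23, 10.98, 10.58, 10.87 and 10.92 in healthy retinas, so the groups overlapped. The difference of -0.24 ± 0.13 (SE) did not pass (adjusted p = 0.214), and neither did those of its other 2 probe sets, 0.09 and -0.23.

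KIF5C, the other heavy chain enriched in neurons, had levels of 10.20, 9.87, 9.06, 8.24 and 7.94 in glaucoma and 10.86, 10.24, 10.26, 10.52 and 10 in healthy retinas. The 5-year-old Shiba Inu lay within the healthy range, and the 7-year-old Basset Hound and the Dalmatian lay far below it. The difference of -1.31 ± 0.40 (SE) passed only just (adjusted p = 0.047), and the second probe set did not pass (-0.75, adjusted p = 0.126). The call of KIF5C was lost on leaving out either Basset Hound, the Dalmatian or any 1 of the 5 healthy retinas (adjusted p = 0.0663 to 0.0993).

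KLC1, the main neuronal light chain, had 4 tested probe sets that did not agree. Its brightest probe set read 9.23, 10.58, 10.44, 10.49 and 9.96 in glaucoma, against 11.13, 11.03, 11.11, 11.00 and 11.03 in healthy retinas. That is a difference of -0.92 ± 0.23 (SE) with no overlap (adjusted p = 0.0191), and 2 further probe sets were lower, by -1.07 (adjusted p = 0.0358) and -1.10 (adjusted p = 0.0107). The fourth and dimmest probe set was higher in glaucoma, at 8.68, 7.75, 7.71, 7.24 and 8.41, against 7.18, 6.71, 6.82, 7.35 and 7.04 in healthy retinas (difference 0.94 ± 0.26, SE, adjusted p = 0.029). Here the 5-year-old Shiba Inu and the Dalmatian were highest, the same dogs that were lowest on the other KLC1 probe sets. KLC1 was the only one of 37 genes with several tested probe sets whose probe sets passed in opposite directions; 31 gave a single call and 5 gave a mixture of passing and not passing. The light chain genes KLC3 (-0.04, adjusted p = 0.958) and KLC4 (-0.29, adjusted p = 0.117) did not pass, and KLC2 was below the level for testing.

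**Figure D2:**
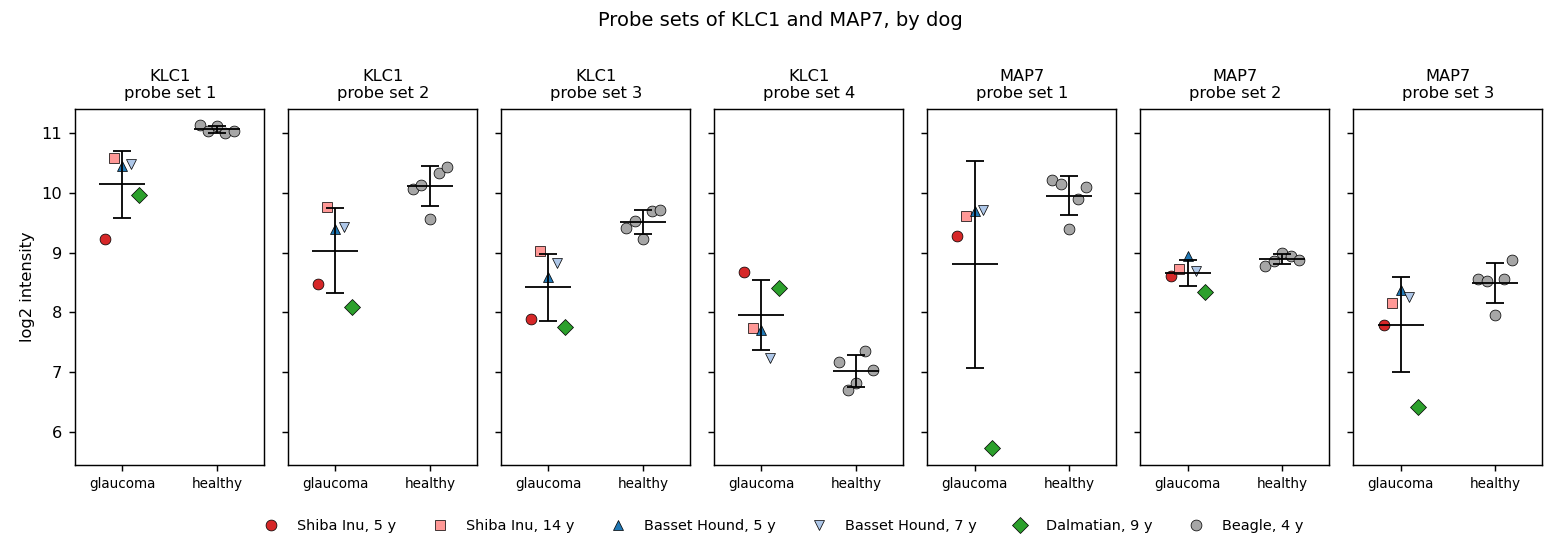
Log2 intensity of the 4 tested probe sets of KLC1 and the 3 of MAP7 in each glaucomatous and healthy retina, ordered by mean level, with bars for the group mean ± SD (n = 5 per group). The fourth KLC1 probe set runs opposite to the other 3, and the low MAP7 mean in glaucoma comes from the Dalmatian, at 5.73 on the first MAP7 probe set.

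The kinesin-3 motors carry synaptic vesicle precursors and dense-core vesicles. KIF1A, the chief neuronal member and the brightest kinesin gene on the array, read 11.52, 12.26, 12.14, 11.999 and 11.96 in glaucoma, against 12.68, 12.54, 12.68, 12.53 and 12.56 in healthy retinas. The groups did not overlap, and the difference was -0.62 ± 0.13 (SE, adjusted p = 0.0101). A single probe set of KIF1A was tested. Its other probe sets lay below the level for testing, differed by 0.04 to 0.21 and did not pass when all probe sets were tested. KIF1B, which also moves mitochondria and synaptic vesicle precursors, varied widely in both groups, at 6.47 to 9.41 in glaucoma and 6.63 to 8.97 in healthy retinas (difference 0.27 ± 0.58, SE, adjusted p = 0.785). KIF1C, a widely expressed member, did not pass at a difference of 0.13 (adjusted p = 0.681).

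Outside these families no tested kinesin gene passed. KIF27, a kinesin-4 relative tied to motile cilia in the mouse, had the largest difference of all members that did not pass. It read 5.49, 8.12, 8.24, 9.01 and 7.20 in glaucoma, against 6.74, 6.37, 6.58, 5.64 and 6.15 in healthy retinas. Of the glaucomatous retinas 4 lay above all healthy ones and the 5-year-old Shiba Inu lay below all of them (difference 1.32 ± 0.55, SE, adjusted p = 0.121). Leaving out that Shiba Inu gave KIF27 a difference of 1.85, which passed (adjusted p = 0.00384). No healthy retina reached the level for testing, so KIF27 was tested only because it was high in glaucoma, and that pass adds no support.

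The remaining kinesins gave little signal to test. KIF2A, which removes tubulin from microtubule ends (-0.16, adjusted p = 0.626), KIF18B, a kinesin of dividing cells (0.08, adjusted p = 0.698), and the kinesin-binding protein KIFBP (-0.10, adjusted p = 0.571) did not pass. Of the 11 kinesin genes grouped under cell division 10 were below the level for testing, as were all 3 kinesin-2 genes, KIF3A, KIF3B and KIF3C, each represented by a single probe set. Below that level, a KIF18A probe set passed as higher when all probe sets were tested (0.43, adjusted p = 0.0425), though the groups overlapped. The other KIF18A probe set did not pass (0.23, adjusted p = 0.286).

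Cytoplasmic dynein 1, the inward motor, is built on the heavy chain DYNC1H1, with intermediate chains that hold the complex together and bind dynactin. Of 9 tested genes of dynein 1 and its shared light chains 2 were lower (22.2%, against 8.65% of all tested genes). In that group 0 were higher and 7 did not pass, with a median difference of -0.10. The heavy chain itself differed by 0.02 ± 0.12 (SE, adjusted p = 0.924) between 10.31 ± 0.19 in glaucoma and 10.29 ± 0.17 in healthy retinas (SD, n = 5 each), and its other 3 probe sets did not pass either.

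DYNC1I1, the intermediate chain found mainly in neurons, was the member gene with the largest difference. Its levels were 8.63, 7.54, 7.82, 6.66 and 6.20 in glaucoma and 9.99, 9.91, 9.46, 9.73 and 9.47 in healthy retinas. The highest glaucomatous retina, the 5-year-old Shiba Inu, was below the lowest healthy one. The difference was -2.34 ± 0.39 (SE), a 5.07-fold lower mean in glaucoma (adjusted p = 0.00234), and the second probe set differed by -1.80 ± 0.20 (SE, adjusted p = 0.00023). That second DYNC1I1 probe set exceeded the level for testing only in healthy retinas, so it was tested only because it was high there and adds no support. Another DYNC1I1 probe set lay below the level for testing, at 5.13 to 5.31 in glaucoma against 5.95 to 6.40 in healthy retinas, and passed when all probe sets were tested (adjusted p = 0.000145).

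DYNC1I2, the intermediate chain of most cell types, did not follow. It read 11.77, 11.32, 11.39, 11.59 and 11.25 in glaucoma and 11.35, 11.48, 11.21, 11.64 and 11.48 in healthy retinas. The ranges overlapped almost fully (difference 0.03 ± 0.13, SE, adjusted p = 0.894), and 0 of its 4 probe sets passed.

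Among the light chains DYNLRB2, a roadblock-type chain, was lower by a small step, 8.64 ± 0.20 in glaucoma and 9.14 ± 0.10 in healthy retinas (SD, n = 5 each; difference -0.51, adjusted p = 0.0121). DYNLL1, the brightest gene of the group, differed by -0.10 (adjusted p = 0.726), and the light intermediate chain DYNC1LI1 by -0.40 (adjusted p = 0.201). Of the 4 genes of dynein 2, the motor of cilia, 0 passed, the nearest being DYNC2I2 (-0.39, adjusted p = 0.0892).

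Dynactin links dynein to cargo. Of its 6 tested subunits 2 were lower (33.3%, against 8.65% of all tested genes), 0 were higher and 4 did not pass. DCTN6, a subunit of the pointed end of the complex, read 9.69, 9.77, 10.07, 9.99 and 9.75 in glaucoma, against 10.67, 10.86, 10.30, 10.60 and 10.64 in healthy retinas. The groups were apart (difference -0.76 ± 0.13, SE, adjusted p = 0.00241), and a second probe set gave -0.71 (adjusted p = 0.00478). Another DCTN6 probe set overlapped between the groups and did not pass (-0.72, adjusted p = 0.0646).

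DCTN2, the shoulder subunit dynamitin, differed by only -0.32 ± 0.08 (SE, adjusted p = 0.0245), from tight groups of 10.44 ± 0.08 in glaucoma and 10.76 ± 0.06 in healthy retinas (SD, n = 5 each), and its other 2 probe sets did not pass. The call of DCTN2 was lost on leaving out the 7-year-old Basset Hound or healthy retina 2, 4 or 5 (adjusted p = 0.0507 to 0.0622). DCTN1, the large subunit that holds dynein and the microtubule, differed by -0.08 (adjusted p = 0.767). DCTN3, the brightest dynactin gene, differed by -0.20 (adjusted p = 0.242), and DCTN5 by 0.35 (adjusted p = 0.262).

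The tubulins split. Tubulin genes resemble each other closely in coding sequence, so that a probe set may also read a near-identical copy, and the assignment to a single gene is uncertain for all of them. TUBA4A, an alpha tubulin abundant in neurons, read 10.78, 11.62, 11.59, 10.42 and 10.64 in glaucoma, against 13.04, 12.92, 12.54, 12.79 and 12.57 in healthy retinas. The groups were well apart, with a difference of -1.76 ± 0.24 (SE), a 3.39-fold lower mean in glaucoma (adjusted p = 0.000772). The second TUBA4A probe set had a difference of -2.63 ± 0.38 (SE, adjusted p = 0.00102), 6.18-fold lower.

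TUBB2A, a neuronal beta tubulin, behaved alike. It read 11.13, 11.43, 11.60, 10.46 and 11.12 in glaucoma, against 13.27, 13.03, 12.69, 12.89 and 12.68 in healthy retinas. The difference was again -1.76, with an SE of 0.20 and an adjusted p of 0.000275, and the second probe set gave -1.59 (adjusted p = 0.000986).

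TUBA1C, an alpha tubulin of many tissues, was the only member gene that was higher in glaucoma. It read 12.17, 11.44, 11.66, 11.72 and 12.45 in glaucoma, against 10.90, 10.57, 10.83, 10.86 and 10.69 in healthy retinas. All glaucomatous retinas lay above all healthy ones, the 5-year-old Shiba Inu and the Dalmatian highest (difference 1.12 ± 0.18, SE, 2.17-fold, adjusted p = 0.00216). A single probe set of TUBA1C was tested.

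The other tubulins did not pass. TUBB, the beta tubulin of most cells, averaged 11.54 ± 0.20 in glaucoma and 11.78 ± 0.21 in healthy retinas (SD, n = 5 each; difference -0.24, adjusted p = 0.241). TUBB3, widely used as a marker of neurons, averaged 8.84 ± 0.32 in glaucoma and 9.11 ± 0.16 in healthy retinas (difference -0.27, adjusted p = 0.259), and neither of its probe sets passed. TUBA8 (-0.15, adjusted p = 0.374) did not pass either. The gamma tubulin TUBG1, which seeds new microtubules, differed by -0.19 (adjusted p = 0.358), and 0 of 3 tested genes of the gamma tubulin ring complex passed.

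**Figure D3:**
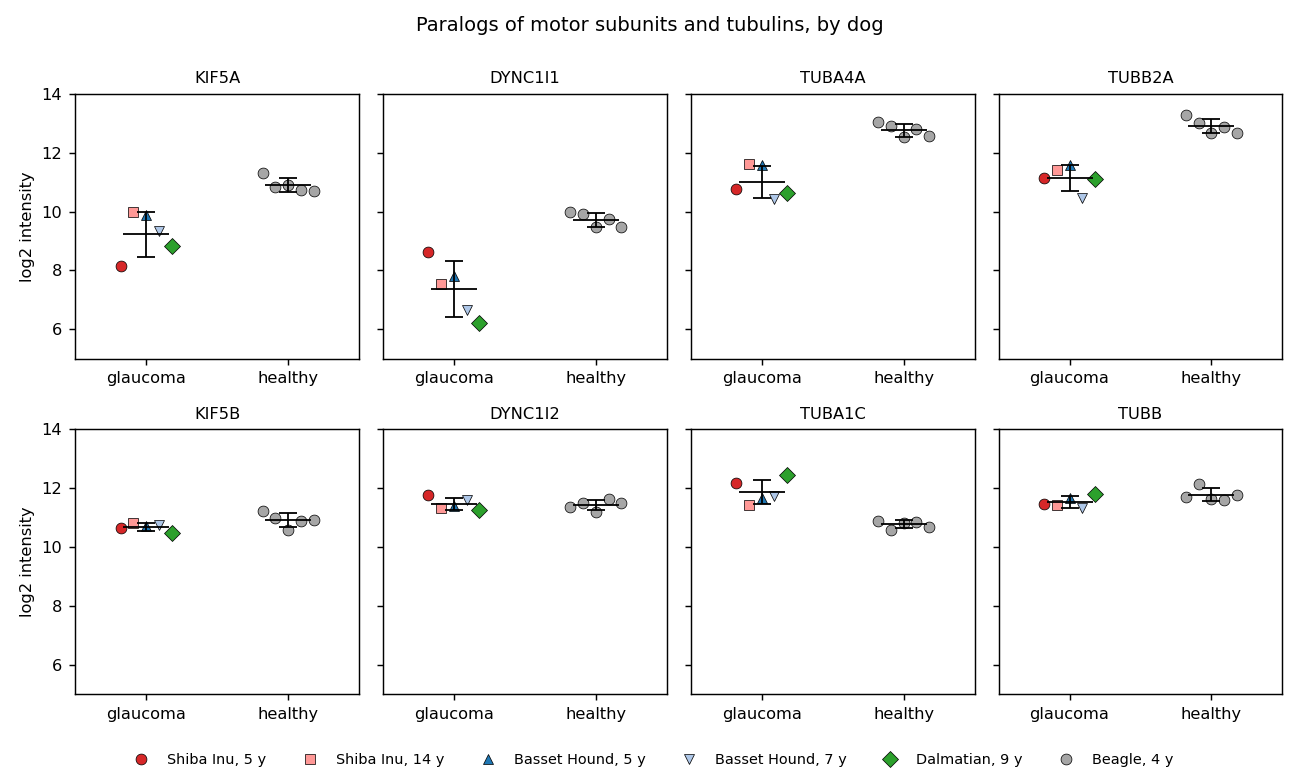
Log2 intensity in each retina of 4 pairs of related genes, glaucoma left and healthy right, with bars for the group mean ± SD (n = 5 per group). In the upper row KIF5A, DYNC1I1, TUBA4A and TUBB2A are lower in glaucoma without overlap; in the lower row KIF5B, DYNC1I2 and TUBB overlap and TUBA1C is higher.

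Structural microtubule-associated proteins bind along the track and stabilize it. Of 7 tested genes 3 were lower (42.9%, against 8.65% of all tested genes), 0 were higher and 4 did not pass. The median difference of the 7 was -0.57. MAP6, which protects neuronal microtubules from cold, had the smallest adjusted p of all members. Its levels were 8.07, 8.20, 8.62, 7.62 and 7.85 in glaucoma and 10.24, 10.04, 10.09, 9.88 and 9.72 in healthy retinas. The groups were more than 1 log2 unit apart, with a difference of -1.92 ± 0.18 (SE), 3.79-fold lower in glaucoma (adjusted p = 0.000105). Its other 2 probe sets differed by -2.43 (adjusted p = 0.000374) and -0.94 (adjusted p = 0.000382), so the direction was shared but the size was not.

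MAPT, the axonal protein tau, read 9.23, 8.51, 8.74, 8.69 and 8.57 in glaucoma and 9.75, 9.33, 9.27, 9.56 and 9.53 in healthy retinas. The 5-year-old Shiba Inu came close to the healthy range without reaching it (difference -0.74 ± 0.15, SE, adjusted p = 0.00775), and a second probe set did not pass (-0.33, adjusted p = 0.089). MAP4, the member of most non-neuronal cells, differed by -0.57 ± 0.15 (SE, adjusted p = 0.0256), and 2 of its 4 probe sets passed. The call of MAP4 was lost on leaving out the Dalmatian or healthy retina 1, 4 or 5 (adjusted p = 0.0519 to 0.0649).

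Large neuronal proteins of this class did not pass. MAP1A, mainly of mature neurons, differed by -0.57 ± 0.19 (SE, adjusted p = 0.0646), and passed on leaving out the Dalmatian (adjusted p = 0.0429). MAP1B, prominent in growing axons and the brightest gene of the class, differed by -0.27 (adjusted p = 0.486), and MAP2, the dendritic member, by -0.03 (adjusted p = 0.955).

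MAP7, which recruits kinesin-1 to microtubules, turned on a single dog. It read 9.27, 9.61, 9.70, 9.71 and 5.73 in glaucoma and 10.21, 10.15, 9.39, 9.90 and 10.10 in healthy retinas. Only the Dalmatian was far below the rest, and the difference of -1.15 ± 0.68 (SE) did not pass (adjusted p = 0.268). On a second probe set of MAP7 the Dalmatian was at 6.42, against 7.78 to 8.37 in the other glaucomatous retinas, but on the third it was at 8.34, against 8.62 to 8.94.

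All 3 tested stathmins of the set, small proteins that bind free tubulin and promote disassembly, were lower without overlap. Of all tested genes 8.65% were lower, and 7.84% had all glaucomatous values below all healthy ones. STMN2, a stathmin that the set does not include, overlapped between the groups and did not pass (-1.59, adjusted p = 0.0552). STMN1 read 12.10, 11.92, 11.86, 11.55 and 11.44 in glaucoma, against 12.53, 12.46, 12.19, 12.46 and 12.42 in healthy retinas (difference -0.64 ± 0.14, SE, adjusted p = 0.00973). STMN3 read 9.66, 9.24, 9.46, 9.28 and 9.17 in glaucoma, against 10.25, 10.14, 10.19, 10.34 and 10.16 in healthy retinas. Its difference was -0.86 ± 0.11 (SE, adjusted p = 0.000559), with -0.71 on the second probe set (adjusted p = 0.00515). STMN4 averaged 7.09 ± 0.21 in glaucoma and 7.66 ± 0.14 in healthy retinas (SD, n = 5 each; difference -0.57, adjusted p = 0.00974).

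Proteins of growing axons gave fewer measurements. CRMP1, a collapsin response mediator that relays guidance signals to the cytoskeleton, read 6.50, 6.56, 6.00, 5.85 and 5.74 in glaucoma, all under the level for testing, against 7.07, 7.12, 7.09, 7.15 and 7.28 in healthy retinas. The difference was -1.01 ± 0.17 (SE, adjusted p = 0.0023). Of all member probe sets 2 were above that level only in glaucoma, and 0 of these were called higher. Another 4 were above it only in healthy retinas, and 3 of these were called lower. DPYSL3, of the same family, differed by -0.06 (adjusted p = 0.912). The doublecortin relative DCLK1 had a difference of -0.001 ± 0.17 (SE, adjusted p = 0.999), and DCX, DPYSL2 and TPPP were below the level for testing.

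TPPP3, which promotes tubulin polymerization, read 8.22, 7.78, 8.57, 7.71 and 7.63 in glaucoma, against 10.07, 9.53, 9.10, 9.05 and 8.67 in healthy retinas. The healthy retinas were themselves spread over more than 1 log2 unit, but the groups did not overlap (difference -1.31 ± 0.27, SE, adjusted p = 0.00742). The second TPPP3 probe set differed by -0.96 (adjusted p = 0.00396).

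The 18 lower genes did not follow 1 order of dogs. Their median deviation from the healthy mean was -0.81 in the 5-year-old Shiba Inu, -0.73 in the 14-year-old Shiba Inu, -0.73 in the 5-year-old Basset Hound, -1.03 in the 7-year-old Basset Hound and -1.07 in the Dalmatian, against -0.11 to 0.17 in the healthy retinas. The Dalmatian was the lowest glaucomatous retina for 7 of the 18 genes, and the 5-year-old Shiba Inu and the 7-year-old Basset Hound for 5 each. The 5-year-old Shiba Inu was at once the lowest for 5 genes, KIF5A and KLC1 among them, and the highest for 5, among them DYNC1I1 and KIF5C. Over the 40 genes that did not pass, the medians were -0.37 to 0.08 in glaucomatous and -0.03 to 0.08 in healthy retinas, the 5-year-old Shiba Inu being lowest.

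**Figure D4:**
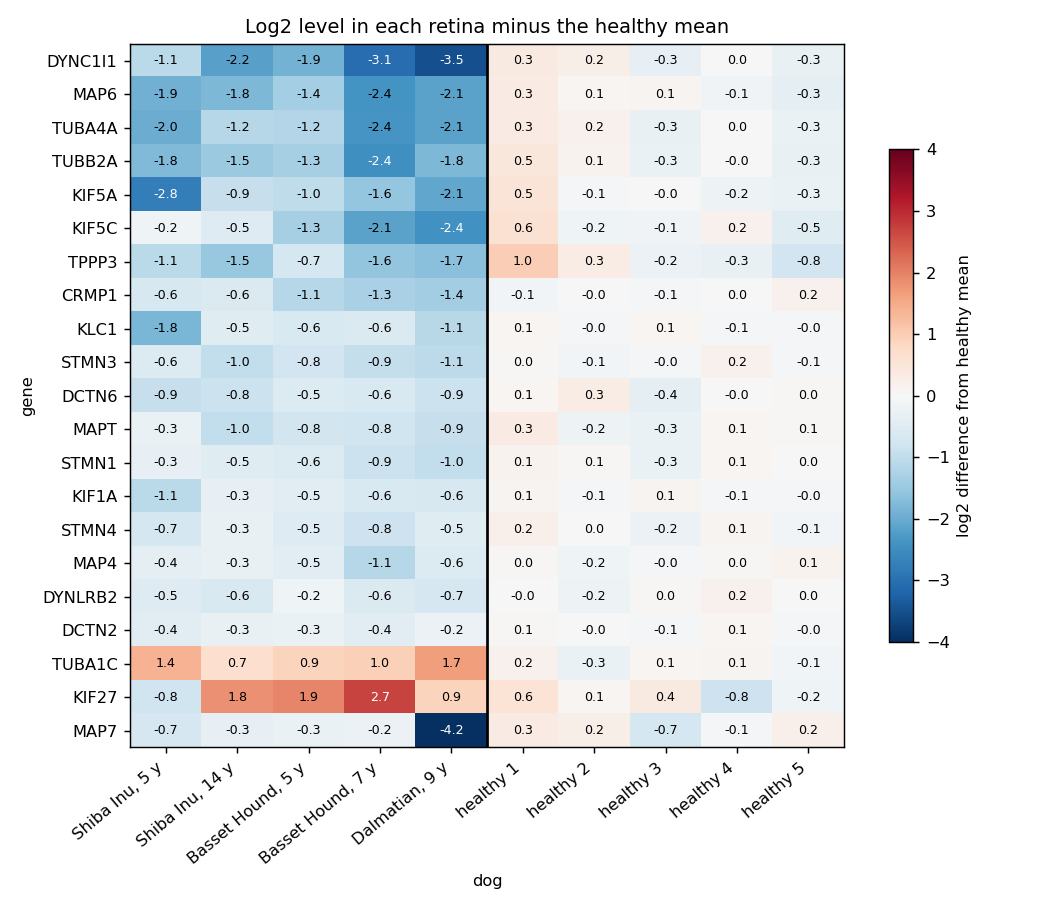
Log2 level in each glaucomatous retina minus the healthy mean of that gene, left of the line. Each healthy retina, right of the line, is set against the mean of the other healthy retinas. Shown are the 18 lower genes sorted by difference, then TUBA1C, KIF27 and MAP7. DYNC1I1 is lowest in the Dalmatian and KIF5A in the 5-year-old Shiba Inu; KIF27 is low in that Shiba Inu alone among the glaucomatous retinas, and MAP7 stands at -4.23 in the Dalmatian.

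Genes that work beside the motors were read for comparison, from lists that hold none of the members. Of 14 tested genes of neurofilaments and other axon structure 6 were lower and 0 higher, with a median of -1.003. The middle neurofilament chain NEFM read 8.51, 9.62, 10.84, 8.74 and 6.32 in glaucoma, against 13.34, 13.31, 12.93, 12.53 and 12.53 in healthy retinas, a difference of -4.12 ± 0.66 (SE, adjusted p = 0.00194). The fall of NEFM exceeded that of any transport gene, and the neuronal calponin relative TAGLN3 was also lower, by -2.64 (adjusted p = 0.000534). Of 12 genes listed as kinesin adaptors and cargo linkers 3 were lower and 0 higher, with a median of -0.47. The largest fall in that list was of CALY, at -2.23 (adjusted p = 7.1e-05). CALY is a neuronal vesicle protein that the study groups with synaptic transmission.

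The other lists held 0 to 2 lower genes each. Over all tested genes 8.65% were lower and 8.04% higher. Of 11 dynein regulators and adaptors 2 were lower (18.2%) and 1 was higher (9.09%), with a median of 0.002; the higher one was NDE1, which anchors dynein's activator LIS1 (0.73, adjusted p = 0.0117). Of 10 plus-end, severing and cross-linking genes 2 were lower (20%) and 0 higher, with a median of -0.20 and APC at -0.55 (adjusted p = 0.00653). Of 14 genes that fold or modify tubulin 0 were lower and 1 was higher, with a median of -0.18; the higher one was the glutamylase TTLL4 at 0.60 (adjusted p = 0.00709), while its relative TTLL7 at -0.69 did not pass (adjusted p = 0.0534). Of 14 intraflagellar transport genes 1 was lower (7.14%), IFT22 at -0.46 (adjusted p = 0.0394), with a median of -0.07.

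Of 7 other microtubule-associated genes 0 were lower and 1 was higher, MAP7D3, a relative of MAP7, at 0.65 (adjusted p = 0.0111), with a median of -0.15. The stathmin STMN2 marks growing and injured axons. It read 12.12, 11.43, 11.41, 10.46 and 8.79 in glaucoma, against 12.77, 12.68, 12.41, 12.20 and 12.10 in healthy retinas. Its difference of -1.59 ± 0.51 (SE) did not pass (adjusted p = 0.0552), with the Dalmatian far lowest. These values are of its brightest probe set. The study, by its own test, lists STMN2 as lower on another and marks it as lower on more than 1. STMN2 passed on leaving out the 5-year-old Shiba Inu (-1.91, adjusted p = 0.0184) or the Dalmatian (-1.08, adjusted p = 0.0412).

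RNA quality was read from control probe sets at both ends of actin and GAPDH. Over 2 such pairs, the signal at the 3′ end over that at the 5′ end averaged, as a log2 ratio, 0.938 ± 0.140 in glaucoma and 1.19 ± 0.22 in healthy retinas (SD, n = 5 each; exact permutation test, two-sided p = 0.0556). Over 4 such pairs it averaged 1.73 ± 0.22 in glaucoma and 1.74 ± 0.30 in healthy retinas (SD, n = 5 each; exact permutation test, two-sided p = 0.9683). With the ratio of 2 pairs as a covariate 7 genes were lower, against 17 with that of 4 pairs and 18 with neither. Of the member probe sets 11.9%, 26.3% and 27.1% were lower, against 2.83%, 9.26% and 9.4% of all tested probe sets.

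The 11 genes that no longer passed with the ratio of 2 pairs kept their direction. Among the motors these were KIF5A (difference -1.20, adjusted p = 0.0735), KIF5C (-1.02, adjusted p = 0.30), KLC1 (-0.72, adjusted p = 0.189), KIF1A (-0.52, adjusted p = 0.117), DYNLRB2 (-0.44, adjusted p = 0.122) and DCTN2 (-0.29, adjusted p = 0.171). Among the microtubule proteins they were MAPT (-0.68, adjusted p = 0.0852), MAP4 (-0.59, adjusted p = 0.128), TPPP3 (-0.76, adjusted p = 0.0612), STMN1 (-0.55, adjusted p = 0.111) and STMN4 (-0.47, adjusted p = 0.116). DYNC1I1, MAP6, TUBA4A, TUBB2A, CRMP1, DCTN6 and STMN3 still passed as lower and TUBA1C as higher, with adjusted p between 0.00209 (MAP6) and 0.0412 (DCTN6). Of these, CRMP1 was tested only because it was high in healthy retinas.

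With age as a covariate 11 genes were lower. Of the member probe sets 16.9% were then lower, against 4.81% of all tested probe sets. All healthy dogs had the same age, so the slope on age came from the glaucoma dogs. The calls lost with age were those of KIF5C (-1.40, adjusted p = 0.134), DYNLRB2 (-0.39, adjusted p = 0.107), DCTN2 (-0.36, adjusted p = 0.0623), MAPT (-0.53, adjusted p = 0.0856), MAP4 (-0.66, adjusted p = 0.058), TPPP3 (-1.04, adjusted p = 0.078) and STMN1 (-0.61, adjusted p = 0.0612).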

How the data were processed

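Total retinal RNA of 5 glaucoma and 5 healthy dogs was hybridized by the authors to 1 array each. The authors normalized the arrays with RMA and deposited linear intensity values, 1 per probe set and dog, of which log2 was taken here. Median intensity was 77.1 to 80.7 per array, and 15910 to 16315 probe sets lay above a log2 level of 7. Arrays have no read depth, so their number limits the precision. Of 43035 probe sets 111 array controls were left out, and the 18416 with log2 above 7 in at least 2 samples were tested in R 4.3.3 with limma 3.58.1 (lmFit, eBayes, two-sided, no covariate, Benjamini-Hochberg), which was checked on simulated data. Each gene was read from the brightest of its tested probe sets, by the average of the 10 samples. A level compares retinas for 1 probe set and is no measure of abundance between genes, since probes bind with different strength. Probe sets took gene symbols from the array's annotation table, and 3 that list a member beside another symbol were left out.

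Members, gene lists and tests were chosen with earlier results of these data known. Named genes were those listed by symbol, those past the test by at least 1 log2 unit, the smallest adjusted p, the largest difference not passed and the highest level of each role group, genes with disagreeing probe sets, and the smallest adjusted p and largest difference of each companion list. DCTN2, DYNLRB2, DYNC1I2, DYNC1H1, DCTN1, TUBB, KIF1C, KLC3, SAG and SNCG were named after their values were seen. Alternatives were other filters, normalizations, tests, covariates, probe set rules and samples left out. The study's methods used SAM and the Wilcoxon test, and the latter was run as an alternative. The 3′ to 5′ ratio of 4 control pairs was added as a covariate after the data were seen. The array files name no genome build, so no coordinates are given.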

Additional observations from a re-analysis of the deposited data

Results flagged for a closer look

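In 5 of 116 groups of 5 retinas checked, 1 gene of the transport set in 1 group, a single retina stood apart from the other 4 by more than 0.71 of the group's range (Dixon's test); chance gives this in about 1 in 20 groups. MAP7 was at 5.726 in the Dalmatian, against 9.271 to 9.707 in the other glaucomatous retinas. DYNLRB2 was at 8.984 in the 5-year-old Basset Hound, against 8.475 to 8.613 in the others. TUBGCP4, of the gamma tubulin ring complex, was at 8.677 in the 7-year-old Basset Hound, against 8.416 to 8.471. Among healthy retinas, MAP2 was at 10.369 in retina 4, against 11.055 to 11.303, and DPYSL3 at 7.528 in retina 5, against 7.869 to 7.996. The 116 groups checked did not cover both groups of all 59 tested genes. KLC3 was not flagged, but it too had a retina apart by more than 0.71 of the range. It was at 7.39 in the 5-year-old Shiba Inu, against 8.835 to 9.341 in the other glaucomatous retinas.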

How the results depend on the processing

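Against 32 lower and 2 higher probe sets and 18 lower and 1 higher gene, the counts were 20 and 1 probe sets and 11 and 1 genes with age as a covariate, 14 and 1 probe sets and 7 and 1 genes with the 3′ to 5′ ratio of 2 control pairs, 39 and 7 probe sets and 21 and 2 genes with array weights, and 16 and 1 probe sets and 8 and 1 genes at a minimum of 2-fold. With the ratio over 4 control pairs they were 31, 2, 17 and 1. Lower with age were 16.9% of member probe sets against 4.81% of all, and with the ratio of 2 pairs 11.9% against 2.83%. With array weights the shares were 33.1% against 15.3%, and with the ratio of 4 pairs 26.3% against 9.26%. Without the Shiba Inus 2 genes were higher. The exact Wilcoxon test gave 0 in each, with a smallest adjusted p of 0.0534 over all probe sets. Every probe set without overlap shares the smallest p that 5 against 5 retinas allow. That p adjusted to 0.0534, so no probe set could pass. At an unadjusted p under 0.05 by that test, 39 member probe sets were lower and 3 higher. Leaving out each retina in turn gave 27 to 33 lower and 1 to 3 higher probe sets and 15 to 18 lower and 1 to 2 higher genes: 3 probe sets and 2 genes were higher without the 5-year-old Shiba Inu, and 1 probe set was higher without the Dalmatian or healthy retina 2, 3 or 5. With single retinas left out, 6.09% to 11.5% of all tested probe sets were lower. With no filter on level, 31 of 213 probe sets (14.6%) were lower and 3 higher, against 4.62% and 3.69% of all 42924. Apart from the exact Wilcoxon test, the cause of these shifts was not tested.

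Replicate numbers were shared between groups only as numbers: deviations of same-numbered retinas correlated at r = -0.243 to 0.069, and none correlated best with its own number. With the replicate number as a block, 27 probe sets were lower and 2 higher, and 15 genes lower and 1 higher. Lower were then 22.9% of member probe sets, against 6.05% of all tested probe sets.

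No gene that passed changed direction in 24 settings. The exact Wilcoxon test, the other filters, limma with other variance settings and the replicate block kept the main difference. No change of direction was possible in those settings. Genes near 0 that did not pass changed sign, none of them passing. DCLK1 was 0.006 after quantile normalization, 0.067 with array weights, 0.043 and 0.005 with the ratio of 2 and of 4 pairs, 0.064 without the Basset Hounds and -0.103 to 0.078 on leaving out single retinas. DCTN1 was 0.13 with array weights, 0.057 with the ratio, 0.057 without the Shiba Inus, 0.109 as the mean of its probe sets and -0.168 to 0.041 on leaving out single retinas. DPYSL3 was 0.266, 0.217 and 0.24 with array weights, with the ratio and without the Shiba Inus, and -0.204 to 0.236 on leaving out single retinas. MAP2 was 0.134, 0.113 and 0.331 in the same 3 settings and -0.2 to 0.227 on leaving out single retinas. DYNC1H1 was -0.002 with age and -0.074 without the Basset Hounds, and -0.032 to 0.08 without single retinas. DYNC1I2 was -0.025 without the Shiba Inus and -0.048 to 0.084 without single retinas. DYNLL1 was 0.012 with array weights, 0.006 without the Shiba Inus and -0.176 to 0.04 without single retinas. KIF18B was -0.096 with age and -0.012 without the Shiba Inus, and KIF1C was -0.087 with age and -0.005 without the Basset Hounds. KIF1B was -0.031 with the ratio, -0.213 without the Basset Hounds and -0.092 to 0.642 without single retinas. KIF2A was 0.084 without the Shiba Inus and -0.278 to 0.015 without single retinas.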
